A study of Mus musculus with 2 samples.

Results

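Oxidative phosphorylation was followed here at the level of RNA, through the genes in the nucleus that encode subunits of the 5 respiratory chain complexes. Members were all genes on the array whose symbol begins with Ndufa, Ndufb, Ndufc, Ndufs or Ndufv (but not Ndufaf), Sdha to Sdhd, Uqcr, Cyc1, Cox4i, Cox5, Cox6, Cox7, Cox8 or Atp5. The rule found 85 such genes through 105 probes, and 84 of them gave a value, of 14669 genes with a value in all. By complex these were 38 genes of complex I, 4 of complex II, 9 of complex III, 16 of complex IV and 17 of complex V. Ndufb1, Ndufb4b, Ndufb4c and Cox5b meet the rule but had no probe that could be named. Cox8c, a cytochrome oxidase isoform of the testis, had a probe that neither array measured well above background.

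RNA came from whole colon of C57BL/6 mice of 2 genotypes. Control mice carried Villin-Cre, a transgene that makes Cre recombinase in the intestinal epithelium, and EP4 cKO mice carried the same transgene with both copies of Ptger4, the gene of the prostaglandin E2 receptor EP4, flanked by loxP sites (Villin-Cre; EP4flox/flox). The study's methods give an age of 8 weeks for its mice, and the labels of the arrays give no age. RNA of each genotype was combined from 3 pools of colon and hybridized to 1 Agilent array with 1 colour (Cy3), both on the same slide, so there were 2 arrays in all. Since each genotype had 1 array, differences have no replicate check, no test was possible, and all values below describe this pair of arrays.

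The respiratory chain sits in the inner membrane of mitochondria. Complex I and complex II pass electrons from NADH and succinate to coenzyme Q, complex III passes them on to cytochrome c, complex IV hands them to oxygen, and the protons pumped on the way drive complex V, the ATP synthase. Most subunits are encoded in the nucleus and a small set in mitochondrial DNA, and several subunits of complex IV exist as a broadly expressed form and as forms of muscle, lung or testis. Colonocytes burn butyrate made by bacteria in this way. Under the electron microscope, the study saw fewer and denatured mitochondria in the surface epithelium of EP4 cKO colons. The arrays hold RNA of whole colon, so they address the RNA level of the chain there and not that observation directly.

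Signals are the scanner's processed intensities, scaled on each array to a trimmed mean of 2500 that leaves out 2% of the probes at each end. The log2 ratio is always that of EP4 cKO over Villin-Cre, so a positive value means a higher signal on the EP4 cKO array. Where several probes stood for a gene the brightest was used, and where a probe was not well above background on 1 array its signal there was held at no less than the lowest signal well above background (125 on the control array and 57.8 on that of EP4 cKO), which makes the fold a lower bound. Of 56593 gene probes, 25683 passed as well above background in the control and 29177 in EP4 cKO, and no spot was saturated. Probes spotted 10 times gave a median SD of the log2 ratio of 0.03 over their spots (279 probes), which measures only the noise within this pair of hybridizations. Ptger4 itself had a brighter probe at scaled signals of 6227 (Villin-Cre) and 5661 (EP4 cKO), and a dimmer probe at 393 and 592. Where these probes lie relative to the deleted part is not given in the sources used here and the colon also holds cells without Cre, so they do not check the genotype.

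The respiratory chain genes hardly differed between these arrays. Their median log2 ratio was -0.02, against -0.10 over all 14669 genes, with an interquartile range of 0.22 against 0.62. A ratio within 1.3-fold was seen for 78 of the 84 genes (92.9%), compared with 55.3% of all genes. 1 gene was more than 2-fold higher on the EP4 cKO array (Ndufa4l2) and 2 were more than 2-fold lower (Cox6a2 and Cox8b), where 4.86% of all genes were higher and 7.87% lower by that much. At 1.5-fold, 1 gene was higher and 3 were lower, Cox6b2 being the addition, against 9.84% and 18.6% of all genes. RNA of a whole tissue was measured, so fewer cells of a type and less RNA per cell cannot be told apart.

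**Figure D1:**
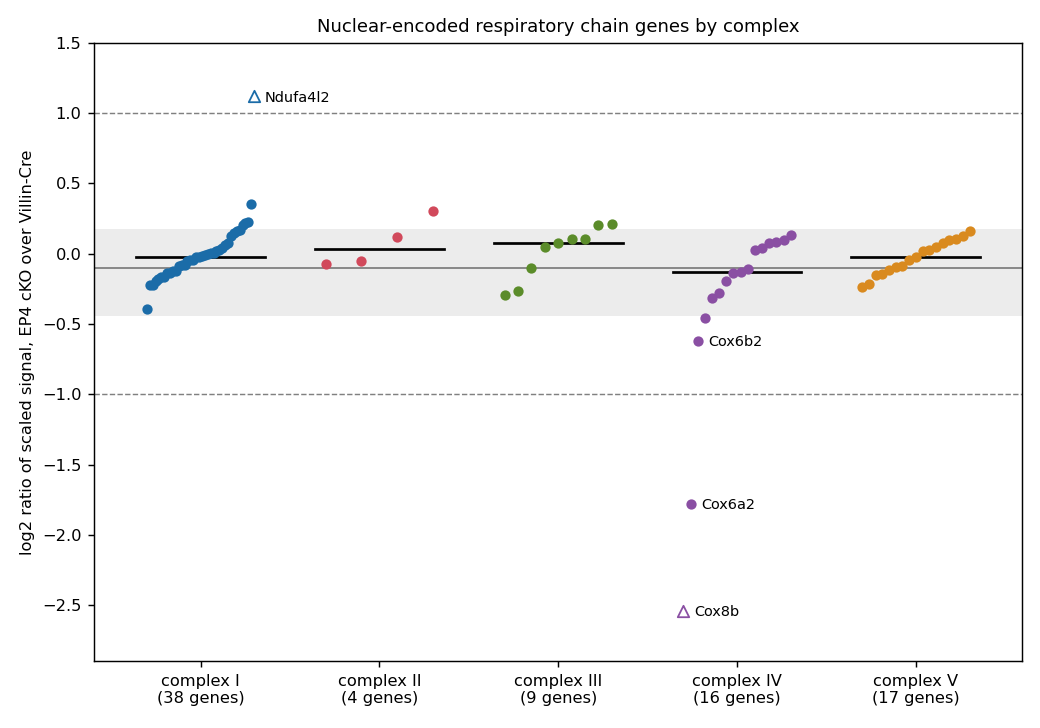
Log2 ratio of the scaled signal (EP4 cKO over Villin-Cre, vertical axis) of each of the 84 genes, grouped by complex and ordered by ratio within it, with 1 array per genotype. Black lines are the medians of the complexes, the grey line and band the median and interquartile range of all 14669 genes, dashed lines 2-fold, and open triangles the 2 genes measured on 1 array only, drawn at their bound; Ndufa4l2, Cox6a2 and Cox8b lie past 2-fold and the other 81 genes do not.

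The probes of these genes were bright, with 77 of the 84 among the 25% of genes with the highest mean signal (3668 genes), and bright probes differ less between arrays than dim ones. Within that brightest 25% the median log2 ratio was -0.05, the interquartile range 0.55, and 63.3% of genes lay within 1.3-fold. Shares past 2-fold were 4.25% higher and 1.61% lower there, and past 1.5-fold 10.2% and 9.6%. In the brightest of 10 bins of signal, 69 respiratory chain genes had a log2 ratio with an interquartile range of 0.21, and the 1213 other genes one of 0.58. The spread was thus narrower than that of other genes of like brightness.

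**Figure D2:**
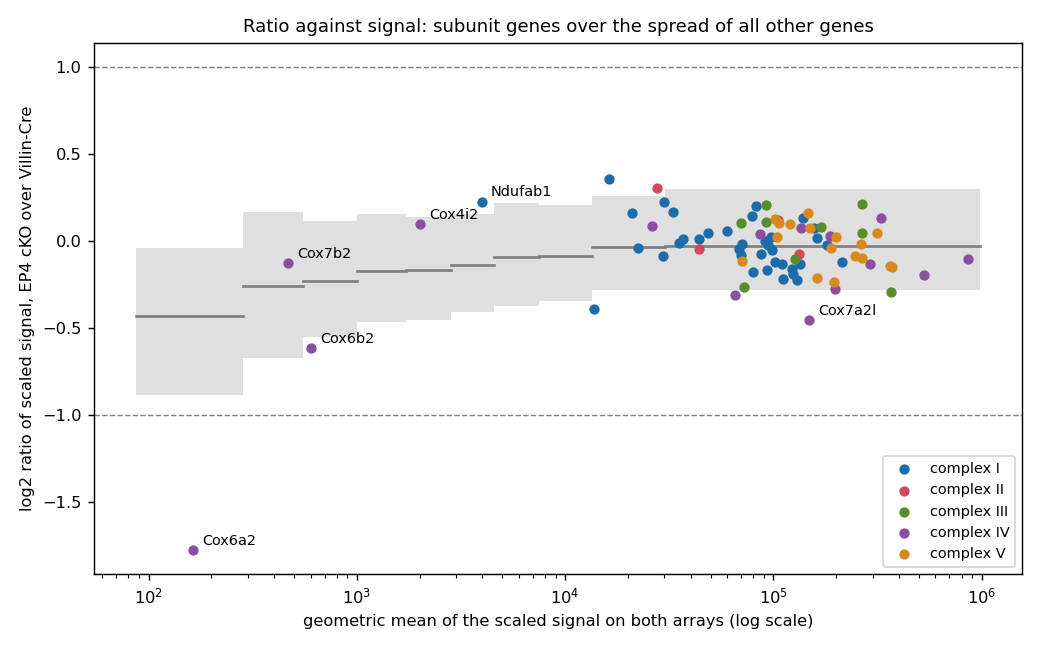
Log2 ratio (vertical axis) against the geometric mean of the scaled signal on both arrays (horizontal axis, log scale) for the 82 respiratory chain genes well above background on both. Grey steps and bands are the median and interquartile range of all other genes in 10 bins of signal, and dashed lines mark 2-fold; 69 of the genes fall in the brightest bin, where their interquartile range was 0.21 and that of the other genes 0.58.

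Relative to the median of all genes, the median log2 ratio was higher by 0.08 for the whole set, 0.08 for complex I, 0.13 for complex II, 0.18 for complex III and 0.08 for complex V, and differed by -0.03 for complex IV. The complexes thus lay within 0.21 of each other. The excess over all genes stayed above 0 for the whole set and for complexes I, II, III and V when the arrays were scaled in 4 other ways, while that of complex IV was 0.01 to 0.06 under 3 of the 4. Under all 4 the median of all genes lay at exactly 0, where many bounds are held, so a shift common to all measured genes does not cancel, and no side is claimed for complex IV. The value of complex IV depended on its isoforms. Without the isoforms of restricted expression and Cox7a2l, and with Ndufa4 counted as the subunit of complex IV that it is now known to be, 10 genes remained with a median 0.09 above that of all genes. Without these and Ndufa4l2, 75 of the 76 other members (98.7%) lay within 1.3-fold.

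The promoters of these genes were searched for motifs of transcription factors. NRF1, GABPA (also called NRF2) and YY1 are transcription factors known for binding promoters of respiratory chain genes. From RefSeq's table for GRCm38.p6, 73 promoters of 68 of the 84 genes were at hand, each running from 250 bases before the gene start to 50 after it. The letters of the NRF1 motif, GCGCANGCG on either strand, were found in 21 of the 73 (28.8%), compared with 6.25% of all 32800 promoters and 14.6% of the 3825 promoters of the brightest 25% of genes. By complex these were 9 of 35 promoters of complex I, 2 of 3 of complex II, 2 of 5 of complex III, 1 of 12 of complex IV and 7 of 18 of complex V. The YY1 letters AAGATGGC stood in 13.7% of the members' promoters, 2.75% of all and 4.94% of those of the brightest 25%.

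The GABPA letters CCGGAAGT were in 6.85% of the members' promoters, which was more than the 3.89% of all promoters but less than the 8.05% of the brightest 25%. Without the last base (CCGGAAG, which includes every match of the longer form) the shares were 23.3%, 8.87% and 19.4%. An interferon response motif, GAAANNGAA, was found in 9.59% of the members' promoters, 8.56% of all and 6.67% of those of the brightest 25%. A cAMP response motif, TGACGTCA, stood in 4 of the 73 (5.48%), 1.79% of all and 3.01% of those of the brightest 25%. The members with the NRF1 letters had a median log2 ratio of -0.05 and those without them -0.03. A match is a run of letters, and whether a factor binds there was not measured.

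**Figure D3:**
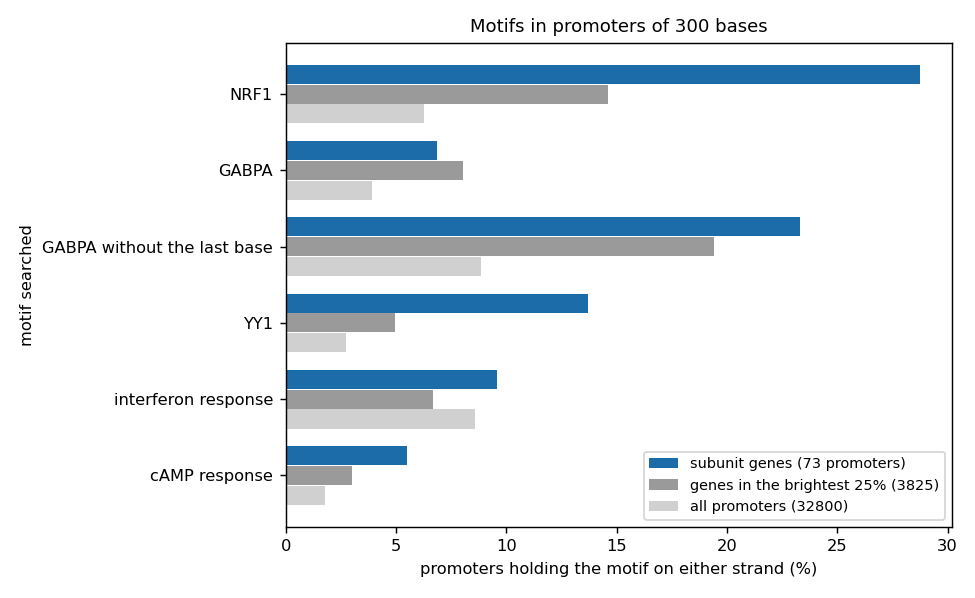
Share of promoters of 300 bases (horizontal axis, percent) that hold each motif on either strand, for the 73 promoters of respiratory chain genes, 3825 promoters of the brightest 25% of genes and all 32800. NRF1 letters were in 28.8% of the members' promoters and 6.25% of all, while the interferon response letters were in 9.59% and 8.56%.

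Sequences of 5 promoters are given 5′ to 3′ on the gene's strand (the minus strand in each case, GRCm38.p6), with the letters of the NRF1, longer GABPA, YY1, interferon and cAMP response motifs in capitals. The shorter GABPA letters, which Cox6a1 also holds, are left in lower case where the longer form is not met. Cox6a1 and Cox8a are shown as the broadly expressed partners of the isoforms that stood out, Cox8b as the isoform with the lowest ratio, and Ndufs6 and Uqcr11 as subunits of complexes I and III with more than 1 kind of motif. Cox6a1 (chr5:115348909-115349208) held NRF1 letters from 162, 161 and 117 bases before its start, the first and the second being overlapping matches on opposite strands. Cox8a (chr19:7217567-7217866) held the GABPA letters from 6 bases before to 31 bases after its start, 2 matches in all. Ndufs6 (chr13:73328433-73328732) held an interferon response motif, an NRF1 motif and the YY1 letters. Uqcr11 (chr10:80406772-80407071) held GABPA letters 66 bases before its start and NRF1 letters from 5 bases before it. Cox8b (chr7:140900397-140900696) held none of the motifs set in capitals.
Cox6a1: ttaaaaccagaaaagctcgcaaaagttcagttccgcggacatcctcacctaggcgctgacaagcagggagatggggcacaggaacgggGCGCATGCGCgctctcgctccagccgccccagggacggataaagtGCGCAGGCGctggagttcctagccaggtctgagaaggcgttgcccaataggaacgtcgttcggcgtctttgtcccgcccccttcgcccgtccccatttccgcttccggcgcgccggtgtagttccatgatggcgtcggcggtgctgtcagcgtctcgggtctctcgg
Cox8a: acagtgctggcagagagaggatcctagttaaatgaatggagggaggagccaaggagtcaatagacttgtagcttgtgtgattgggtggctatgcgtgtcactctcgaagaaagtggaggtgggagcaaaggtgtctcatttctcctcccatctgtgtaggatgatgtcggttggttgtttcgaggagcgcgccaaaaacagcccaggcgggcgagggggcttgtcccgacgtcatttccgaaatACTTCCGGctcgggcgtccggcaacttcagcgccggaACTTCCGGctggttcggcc
Cox8b: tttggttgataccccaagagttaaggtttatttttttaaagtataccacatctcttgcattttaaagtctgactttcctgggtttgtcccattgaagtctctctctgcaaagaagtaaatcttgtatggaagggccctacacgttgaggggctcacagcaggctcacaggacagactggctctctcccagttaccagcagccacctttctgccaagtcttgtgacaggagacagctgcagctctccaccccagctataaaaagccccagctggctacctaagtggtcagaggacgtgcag
Ndufs6: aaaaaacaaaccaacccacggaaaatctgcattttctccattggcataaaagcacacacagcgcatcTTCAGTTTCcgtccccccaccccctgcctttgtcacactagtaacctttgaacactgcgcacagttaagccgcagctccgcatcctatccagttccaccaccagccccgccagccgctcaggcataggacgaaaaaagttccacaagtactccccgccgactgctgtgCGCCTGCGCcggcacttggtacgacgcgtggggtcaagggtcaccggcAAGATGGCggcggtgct
Uqcr11: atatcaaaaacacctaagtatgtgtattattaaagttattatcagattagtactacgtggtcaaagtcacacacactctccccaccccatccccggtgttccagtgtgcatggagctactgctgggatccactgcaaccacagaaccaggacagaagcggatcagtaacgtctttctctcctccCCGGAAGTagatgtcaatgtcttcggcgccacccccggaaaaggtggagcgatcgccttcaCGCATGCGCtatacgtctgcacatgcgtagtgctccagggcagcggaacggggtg

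Complex I is the largest complex, and its 7 nuclear core subunits carry the flavin and the iron-sulfur clusters. Of the subunits that oxidize NADH, Ndufv1 gave a scaled signal of 100569 in Villin-Cre and 97096 in EP4 cKO, a log2 ratio of -0.05. Ndufv2 gave 70806 and 69876 (log2 ratio -0.02), and Ndufs1, the largest core subunit, 36528 and 36707 (0.01). All 3 had nearly equal signals on both arrays. Of the core subunits near the coenzyme Q site, Ndufs3 gave 71579 and 67687 (log2 ratio -0.08), Ndufs7 84480 and 74662 (-0.18) and Ndufs8 58753 and 61153 (0.06). The median log2 ratio of the 7 core subunits was -0.05, or 0.05 above that of all genes, and this excess turned to -0.04 when background correction by normexp and quantile normalization were used.

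Accessory subunits of complex I surround the core and are needed for its assembly and stability. The 13 Ndufa subunits had a median log2 ratio of -0.03, the 10 Ndufb subunits 0.03 and the 6 others (Ndufc, Ndufs and Ndufv) 0.02. At the upper end stood Ndufa11, a membrane subunit, with scaled signals of 14403 in Villin-Cre and 18388 in EP4 cKO (log2 ratio 0.35, 1.28-fold higher). Ndufab1, the mitochondrial acyl carrier protein, gave 3679 and 4296 (log2 ratio 0.22), and Ndufs4, whose loss causes a mitochondrial disease, gave 27511 and 32065 (0.22). These 3 and Ndufa4l2 had the highest ratios of the complex. Towards the lower end stood Ndufa1 (signals 139828 and 119756, log2 ratio -0.22), Ndufb11 (119637 and 102602, -0.22) and Ndufa5 (132672 and 116108, -0.19). Ndufa1 and Ndufb11 are both encoded on the X chromosome, as is Cox7b of complex IV, whose log2 ratio was 0.07.

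Ndufa4 and Ndufa4l2 bear the name of complex I, but Ndufa4 is now placed in complex IV and Ndufa4l2 is a relative known to be induced by low oxygen. Ndufa4 gave scaled signals of 22797 and 22134 and a log2 ratio of -0.04. Ndufa4l2 was not well above background in Villin-Cre (75.9) and gave 272 in EP4 cKO, at least 2.17-fold higher (log2 ratio at least 1.12). The signals were low, and after normexp with quantile normalization the log2 ratio was 0.80. The Ndufa4l2 bound was thus lost as a 2-fold difference under that setting.

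Complex II is succinate dehydrogenase, the member that the chain shares with the citrate cycle, and all its subunits are nuclear. Sdha, the flavoprotein, gave scaled signals of 44465 and 42962 (log2 ratio -0.05) and Sdhb, the iron-sulfur subunit, 136522 and 129522 (-0.08). The membrane anchors were higher on the EP4 cKO array, Sdhc with 24806 and 30571 (log2 ratio 0.30, 1.23-fold) and Sdhd with 101144 and 109754 (0.12, 1.09-fold). All 4 ratios by the brightest probes exceeded the median of all genes. For Sdha this was not settled, since its dimmer probe gave a log2 ratio of -0.23, below that median. Sdha also lay below the median of all genes (0) after normexp with quantile normalization (-0.08) and after loess (-0.01). Sdhc held the highest ratio of complexes II to V.

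Complex III had the highest median of the 5 complexes, except after normexp with quantile normalization, where complex II was highest (0.189 against 0.186). Its redox subunits are Cyc1 (cytochrome c1) and Uqcrfs1 (the Rieske iron-sulfur protein), and both were higher on the EP4 cKO array. Cyc1 gave scaled signals of 85485 and 98611 (log2 ratio 0.21) and Uqcrfs1 67678 and 72744 (0.10). Of the core proteins, which resemble processing peptidases, Uqcrc2 gave 88297 and 95096 (log2 ratio 0.11) and Uqcrc1 79480 and 66135 (-0.27), so the pair lay on opposite sides of 0. Among the small subunits Uqcrq had the highest log2 ratio (246880 and 285763, 0.21) and Uqcrh, the hinge protein that helps cytochrome c1 dock cytochrome c, the lowest (404306 and 329654, -0.29). The remaining small subunits lay between these, Uqcrb at a log2 ratio of 0.08, Uqcr10 at 0.04 and Uqcr11 at -0.10.

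In complex IV the 9 broadly expressed nuclear subunits measured had a median log2 ratio of 0.03 and ranged from -0.28 to 0.13. Cox5a, a subunit on the matrix side, was at the top with scaled signals of 312994 in Villin-Cre and 342603 in EP4 cKO (log2 ratio 0.13). Cox6c was at the bottom with 218333 and 179968 (log2 ratio -0.28). Cox6b1, Cox7b, Cox7c and Cox7a2 had log2 ratios of 0.09, 0.07, 0.04 and 0.03, and Cox4i1, the regulatory subunit that binds ATP, -0.13. Cox7a2l, which links complex III with complex IV in supercomplexes, gave 174255 and 126924 (log2 ratio -0.46, 1.37-fold lower). It was the lowest of all members outside the isoforms of restricted expression. Its log2 ratio was -0.22 after normexp with quantile normalization.

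The isoforms of restricted expression gave the largest differences of the chain. Cox8b, the form of heart, skeletal muscle and brown fat, gave 376 in Villin-Cre and 64.7, not well above background, in EP4 cKO, at least 5.82-fold lower. Its broadly expressed partner Cox8a gave 563610 and 491457, a log2 ratio of -0.20. Cox6a2, the form of heart and skeletal muscle, gave 303 and 88.2 (log2 ratio -1.78, 3.43-fold lower), beside a log2 ratio of -0.11 for Cox6a1 (887871 and 824770). In each of these pairs only the muscle form was past 2-fold. Cox7a1, another form of muscle and brown fat, was different, since its signals of 72822 and 58545 gave a log2 ratio of -0.31 (1.24-fold lower).

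Forms known from testis and lung were closer to equality than Cox8b and Cox6a2. Cox6b2, a testis form, gave scaled signals of 749 and 488 (log2 ratio -0.62, 1.53-fold lower), and Cox7b2, also of testis, 489 and 446 (-0.13). Cox4i2, the form of lung that responds to oxygen, gave 1951 and 2083 (log2 ratio 0.09). Of the 6 restricted forms with a value, 5 were therefore lower on the EP4 cKO array and 1 was higher. Most genes were not higher either, since 5329 of all 14669 lay above 0. Cox7b2 was above 0 under each of the 4 other scalings (log2 ratios from 0.001 to 0.11), so its side was not fixed. The signals of Cox8b, Cox6a2, Cox6b2 and Cox7b2 were all low, where ratios scatter more and where other genes were lower too. The median log2 ratio of other genes was -0.43 in the dimmest of the 10 bins of signal, which held Cox6a2, -0.26 in the next, which held Cox7b2, and -0.23 in the one after it, which held Cox6b2. After normexp with quantile normalization the log2 ratios were -0.98 for Cox8b, -0.72 for Cox6a2 and -0.33 for Cox6b2, so none was past 2-fold. Cox6b2 was within 1.5-fold under each of the 4 other scalings.

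Markers of the cells that could carry these isoforms were read on the same arrays. Of 6 markers of striated muscle, Ckm and Ttn stood well above background on neither array, and the summed scaled signal of the list was 584 in Villin-Cre and 1404 in EP4 cKO. Most of this difference came from Acta1 (235 and 921), while Tnnt3 gave 192 and 197. All 5 adipocyte markers, Ucp1 and Cidea of brown fat among them, stood well above background on neither array. Of 8 smooth muscle markers Myh11 and Lmod1 did so on neither array, the sum was 33033 and 47416, and Cnn1 and Smtn were lower (log2 ratios -2.73 and -0.59) where Acta2, Actg2 and Tagln were higher (0.62, 0.72 and 0.38). Fibroblast markers differed most, with 5 of 5 that had a value more than 2-fold lower and a sum of 12957 against 304, Pdgfra being not well above background on either. Of the other lists, enteric neuron and glia gave a sum of 3957 and 2029 (4 of 7 markers not well above background on either), erythroid cells 132324 and 4838, leukocytes 61522 and 88033 (Adgre1, Cd79a and Lyz2 likewise) and endothelium 1104 and 1134 (Cdh5 and Kdr likewise). The colon epithelium list was measured with all 10 markers on both arrays and had sums of 1789560 and 2328400, most of the difference being that of Krt20 (146575 and 510711), while Cdh1, Cdx2 and Car1 were lower in EP4 cKO. The part of these cells in the isoform values was not tested, and with 1 array per genotype a difference between the genotypes and one in the tissue sampled cannot be told apart.

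Complex V makes ATP in its F1 head, which is joined to a rotor in the membrane. Atp5a1 (alpha) gave scaled signals of 390426 and 351760 (log2 ratio -0.15) and Atp5b (beta), with which it forms the catalytic sites, 382673 and 345704 (-0.15). The stalk subunit Atp5c1 (gamma) gave 199272 and 202159 (log2 ratio 0.02), Atp5d (delta) 73294 and 67680 (-0.11) and Atp5e (epsilon) 174857 and 150677 (-0.21). Of the 5 F1 subunits 4 were thus lower on the EP4 cKO array and also below the median of all genes. Their median lay at -0.05 relative to all genes, and at 0.04 after normexp with quantile normalization, so no side is claimed for them.

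Subunits of the membrane part other than subunit c, and of the outer stalk, lay higher. Their median log2 ratio was 0.07, which was 0.16 to 0.23 above all genes under every scaling tried. All 9 of them exceeded the median of all genes by their brightest probes, but Atp5l and Atp5h by only 0.002 and 0.01. Both lay below the median of the brightest 25% of genes (-0.05). The dimmer probe of Atp5o, at -0.15, was below the median of all genes. The highest were Atp5mpl, a small proteolipid (138857 and 154914, log2 ratio 0.16), Atp5j, coupling factor 6 (97639 and 106376, 0.12), Atp5md, needed for dimers of the enzyme (103115 and 110739, 0.10), and Atp5j2, subunit f (116737 and 124784, 0.10). Subunit c, the ring that turns with the protons, is encoded by 3 genes whose mature proteins are the same. Atp5g1 gave signals of 191101 and 185320 (log2 ratio -0.04), Atp5g2 213023 and 180982 (-0.24) and Atp5g3 308148 and 317675 (0.04). Atp5g2, the lowest of the complex, was spotted 10 times, and its spots gave log2 ratios from -0.33 to -0.19 (SD 0.04). It was thus lower at every spot, but the spots repeat the same probe within this pair of hybridizations. Under the other scalings its log2 ratio ranged from -0.14 (loess) to -0.01 (normexp with quantile normalization). In the latter Atp5d was lower, at -0.16.

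For 17 of the genes more than 1 probe was well above background on both arrays, which gives a second reading of the same RNA. In 11 of the 17 all probes pointed the same way, and in 6 they did not: Atp5g1, Atp5h, Cox7c, Ndufa10, Sdhb and Uqcr10. The brightest and the dimmest probe of a gene differed by a median of 0.10 and by at most 0.29 in log2 ratio, the latter for Atp5b (-0.15 and -0.44). Atp5g1 gave log2 ratios of -0.04 and 0.12 by its probes and Ndufa10 -0.01 and 0.11, so the sign of such small ratios was not fixed. Sdhb gave -0.08 and 0.04, Uqcr10 0.04 and -0.06, and Cox7c 0.04 and -0.01. Atp5h gave -0.09, 0.03 and -0.02 by its 3 probes. The order of members whose ratios lie closer together than their probes do is not settled by these arrays.

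**Figure D4:**
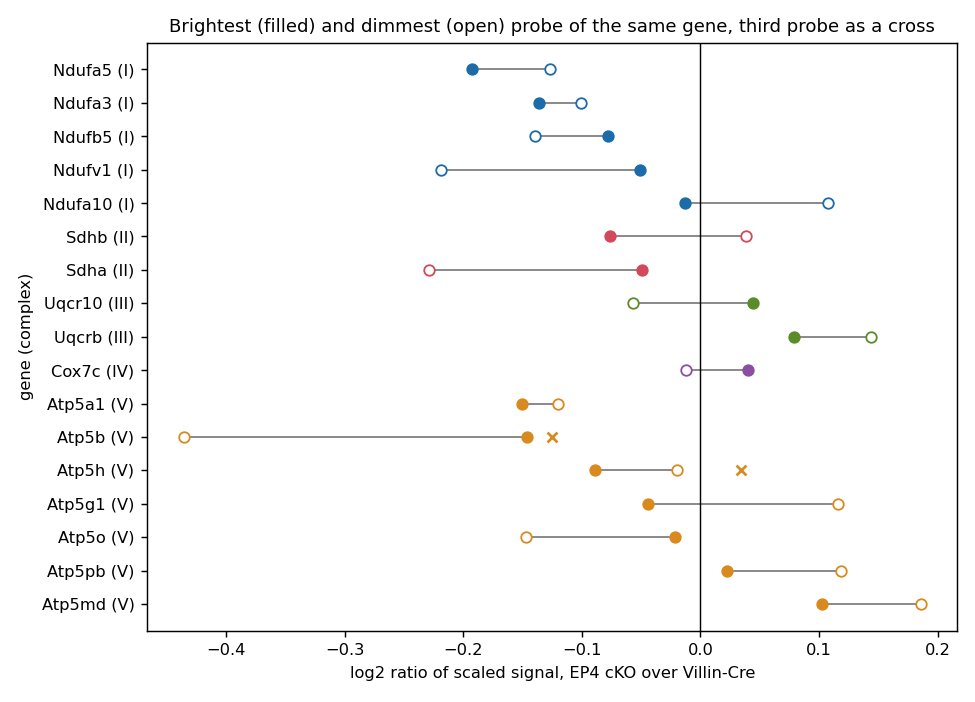
Log2 ratio (horizontal axis, EP4 cKO over Villin-Cre) by the brightest probe (filled), the dimmest (open) and, where there was one, the third probe (cross) of the 17 genes with more than 1 probe well above background on both arrays, coloured by complex. The brightest and dimmest probe of a gene differed by a median of 0.10 and by at most 0.29 (Atp5b), and in 6 genes the probes fell on both sides of 0.

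Factors that assemble the complexes were listed apart from the subunits. For complex I, 15 of 16 factors had a value and none was past 1.5-fold, where 9.84% of all genes were higher and 18.6% lower by as much, with a median log2 ratio of -0.04. Tmem126b and Foxred1 were the highest (0.45 and 0.37) and Timmdc1 and Ndufaf5 the lowest (-0.44 and -0.30). The factors of complex II had log2 ratios of 0.16 (Sdhaf1), 0.04 (Sdhaf2), -0.02 (Sdhaf3) and -0.04 (Sdhaf4). For complex III the median was -0.35 over 5 of 6 factors, or -0.35 to -0.20 relative to all genes under every scaling tried. The subunits of complex III had the highest median of the chain, except after normexp with quantile normalization. Bcs1l, which inserts the Rieske protein, gave scaled signals of 7182 and 4934 (log2 ratio -0.54), Uqcc1 had a log2 ratio of -0.38, and Ttc19 and Uqcc2 were nearest to 0 at -0.03 and -0.23.

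Of 21 factors of complex IV, 20 had a value, with a median log2 ratio of 0.03. Sco2, a copper chaperone, was the only 1 of them past 1.5-fold (5235 and 3233, 1.62-fold lower), again against 9.84% of all genes higher and 18.6% lower, followed by Surf1 at -0.53, and the highest were Coa7 (0.51) and Cox11 (0.46). For complex V, Atpaf1, Atpaf2 and Tmem70 gave -0.28, -0.22 and 0.00. The mobile carriers and the makers of coenzyme Q spread more widely than any complex, with an interquartile range of 0.80 over 13 genes. Cycs, the gene of somatic cytochrome c, gave 78003 and 141043 (log2 ratio 0.85, 1.81-fold higher), and Pdss1, which makes the tail of coenzyme Q, was at 0.66. Coq8a, a kinase-like protein of coenzyme Q synthesis, gave 4244 and 1552 (log2 ratio -1.45), and Cyct, the testis cytochrome c, 189 and 20.7, not well above background, at least 3.27-fold lower.

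Regulators of mitochondrial genes and of mitochondrial DNA had a median log2 ratio of -0.18, and 3 of the 15 were more than 1.5-fold lower and none higher, a share near the 18.6% of all genes that were lower by as much. Twnk, the helicase of mitochondrial DNA, gave 564 and 315 (log2 ratio -0.84), Ppargc1b, a coactivator of mitochondrial genes, 12262 and 7354 (-0.74), and Polg, the DNA polymerase, 2884 and 1824 (-0.66). Ppargc1a, its better known relative, gave 5237 and 5999 (log2 ratio 0.20) and Esrra, the nuclear receptor that works with it, 68788 and 71461 (0.06). The factors whose motifs were searched lay near the median of all genes, Nrf1 at 0.02, Gabpa at -0.06 and Yy1 at -0.24.

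Other mitochondrial genes give the frame for these ratios. The 78 mitochondrial ribosomal proteins had a median log2 ratio of -0.09 and an interquartile range of 0.22, equal to that of the respiratory chain genes to 2 decimals, and ranged from -0.94 (Mrpl35) and -0.65 (Mrpl42) to 0.48 (Mrps6) and 0.51 (Mrpl27). The 26 genes of import and of the outer membrane had a median of -0.01, from -0.70 (Tomm34) and -0.54 (Timm44) to 0.20 (Timm10b) and 0.38 (Vdac2). The 13 genes of the citrate cycle had a median of 0.02, with Cs (0.44) and Suclg2 (0.38) highest and Idh3b (-0.39) and Sucla2 (-0.27) lowest. Outside mitochondria, the 75 cytosolic ribosomal proteins had a median of -0.29 and an interquartile range of 0.17, from Rps15a (-0.57) and Rpl37a (-0.48) to Rpl23a (-0.07) and Rpl27 (0.00), a median that differed by -0.27 from that of the respiratory chain. The narrow spread was shared with both sets of ribosomal proteins, whereas the ratios of the respiratory chain lay closer to those of the other mitochondrial sets than to those of the cytosolic ribosome.

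**Figure D5:**
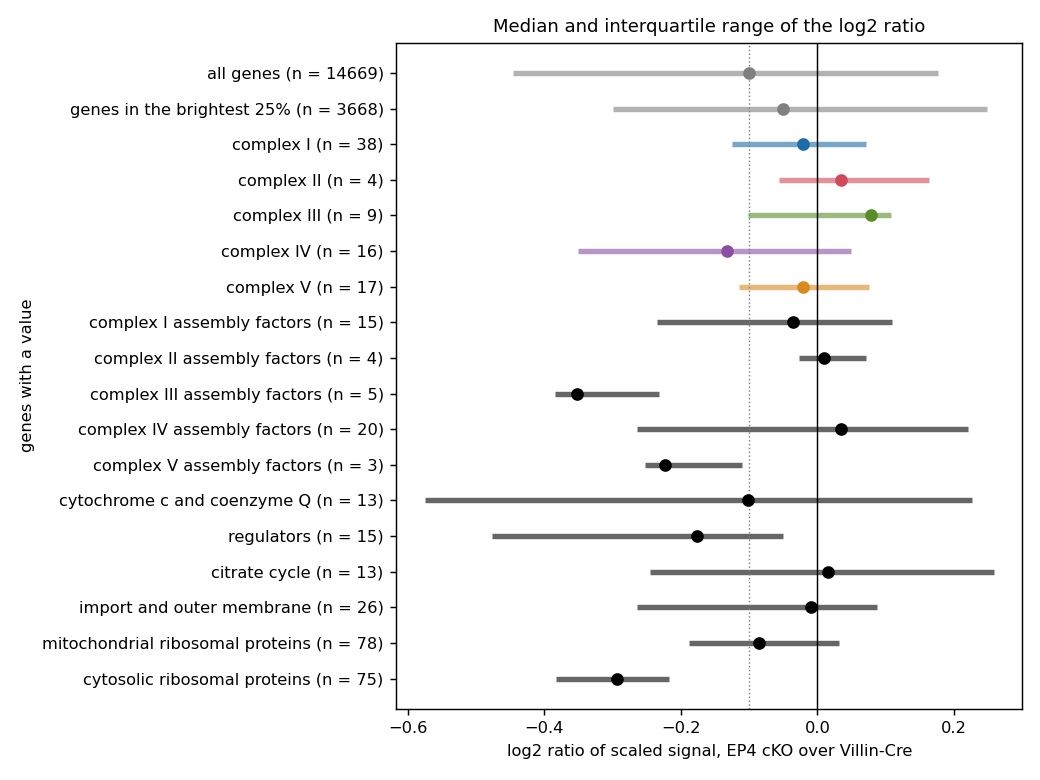
Median (point) and interquartile range (bar) of the log2 ratio (horizontal axis, EP4 cKO over Villin-Cre) over the genes with a value in each complex and list, with all genes and the brightest 25% of genes in grey, a dotted line at the median of all genes (-0.10) and a solid line at 0. Complexes I, II, III and V lay to the right of the dotted line, also under the other scalings, complex IV lay at -0.13 with a side that was not the same under every scaling, and cytosolic ribosomal proteins lay at -0.29.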

How the data were processed

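Whole-colon RNA of Villin-Cre mice and of EP4 cKO mice was measured on 2 Agilent SurePrint G3 mouse arrays, 1 for each genotype, and samples were grouped by the genotype in their labels. The authors deposited the intensity of each spot as Agilent Feature Extraction wrote it (12.0.3.1 per the file headers, 11.5.1.1 per the submitters' processing notes), background-subtracted and detrended but not normalized between arrays, together with flags for controls, outliers, saturation and signal well above background. Subtraction and the replacement of low values by the software affect ratios of dim probes most.

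From the deposited intensities, control spots and outlier spots (147 and 126) were left out, spots of a probe were averaged, and each array was multiplied by a factor (3.45 for Villin-Cre, 2.68 for EP4 cKO) that set its trimmed mean to 2500. Log2 ratios, bounds and the choice of probe are described beside the first results, and a bound of 1 or less was counted as a log2 ratio of 0. RefSeq accessions of 32989 of the 56593 gene probes matched a table of genes of GRCm38.p6, giving 22909 genes, and other probes served only for scaling. Probe positions are not given, because the array's grid follows another assembly. Precision is limited by the number of arrays, and variation among mice is not known.

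The members and gene lists were chosen with earlier results of these data known. Genes named are Ptger4, members past 2-fold, the 4 highest and 4 lowest of each complex, catalytic subunits, isoform pairs, members whose probes disagree and the 2 highest and 2 lowest of each list. Polg, Nrf1, Gabpa, Yy1 and the remaining complex IV and small complex III subunits were named in addition after their values were seen. The values of some single genes that the rule names are left out of the text. Promoters came from RefSeq (GRCm38.p6).

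Alternatives were the 75th percentile as scale, normexp (offset 50, on the median signal) followed by quantile normalization, loess (span 0.3), the trimmed mean taken over every spot, values required on both arrays, dim probes kept, all probes of a gene averaged, another membership and the brightest 25% of genes as background. The dimmest probe, the shorter GABPA letters and the shares and promoters of the brightest 25% were added after seeing the data. Steps were tested on simulated data. Tools were R 4.3.3 (limma 3.58.1) and Python 3.11.15 (matplotlib 3.10.9, pandas 2.3.3, numpy 2.4.6, statsmodels 0.14.6).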

Additional observations from a re-analysis of the deposited data

How the results depend on the processing

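With 1 array per genotype no sample could be left out, no paired analysis was possible because each genotype has 1 array, and a value was taken as moved when it differed by more than the median SD over spots (0.03). Of the medians of the whole set and the 5 complexes relative to all genes, only that of complex IV (-0.03) changed its sign. Among smaller groups the sign turned under at least 1 scaling for the complex I core (0.049 to -0.044), the complex III core proteins (0.021 to -0.023) and the F1 subunits (-0.047 to 0.041), and among the lists for cytochrome c and coenzyme Q, mitochondrial ribosomal proteins, import and outer membrane, and the citrate cycle. The median of all genes itself shifted by 0.10 under the 4 other scalings, to 0, where many bounds of 1 or less lie.

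Relative to all genes, medians after scaling to the 75th percentile were 0.13 for the whole set, 0.14 for complex I, 0.19 for II, 0.24 for III, 0.024 for IV and 0.14 for V. Normexp with quantile normalization gave 0.19 for complex II, 0.058 for IV and 0.16 for V, and 0 subunits past 2-fold either way. Under that setting complex II was highest and complex I lowest, in place of III and IV. Loess gave 0.040 for complex I, 0.10 for II and 0.014 for IV. With probes well above background on both arrays only, the values were 0.13 for the whole set, 0.13 for complex I, 0.18 for II, 0.23 for III, 0.020 for IV and 0.13 for V, with 0 subunits more than 2-fold higher, 1 lower and 0 more than 1.5-fold higher. Without a filter on dim probes they were 0.34, 0.35, 0.40, 0.45, 0.23 and 0.35 in the same order, since 22909 genes then counted and their median was -0.37. The mean of all probes gave 0.12 for complex V. With Ndufa4 in complex IV and the restricted isoforms, Cox7a2l and Ndufa4l2 left out, complex IV was at 0.092, complex I was lowest, and 0 subunits were past 2-fold or 1.5-fold in either direction. Against the brightest 25% of genes, the medians were 0.028 for the whole set, 0.029 for complex I, 0.085 for II, 0.13 for III, -0.082 for IV and 0.029 for V.

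Of 85 single genes (the 84 members and Ptger4), 85 moved with the 75th percentile and 70 with normexp and quantile normalization. With loess 76 moved, and with the trimmed mean over all spots 85. The mean of all probes moved 12, the dimmest probe 17, no filter 1 and both arrays required 0 (83 genes). Cox6a2 stayed more than 2-fold lower under all of these but normexp with quantile normalization. Why this setting brought ratios of dim probes closer to 0 was not tested. Normexp, quantile normalization and the median signal were changed together in it, so their parts were not separated. Signal over background limits Cox6a2, Cox6b2, Cox7b2, Cox8b and Ndufa4l2, which have bounds or low signals.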
